A study of Mus musculus with 6 samples.

Results

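Epgn-positive keratinocytes are skin epithelial cells whose barcodes carry transcripts of Epgn, which encodes the growth factor epigen. They were taken from droplet single-cell RNA counts of mouse back skin by a rule on raw UMIs, the molecular tags that mark single captured transcripts. A member had at least 2 UMIs of Epgn, at least 5 UMIs summed over the keratin genes Krt5, Krt14, Krt1 and Krt10, under 3 over the cycling genes Mki67, Top2a and Cdk1, and under 5 over the fibroblast genes Col1a1, Col1a2, Col3a1 and Dcn. The rule found 2844 members among 34834 kept cells (8.16%), or 14.9% of the 19150 keratinocytes that met every condition except the one on Epgn. The mice were male C57BL/6, an inbred wild-type strain with no engineered allele, aged 8, 26 or 52 weeks. At each age 1 library came from skin treated outside the body with PBMC-sec, the secretome of gamma-irradiated mononuclear blood cells, and 1 from untreated skin. Every library pooled 3 animals, so a condition has 1 library and no replicate. Untreated skin was dissociated at once, so the effects of the secretome and of time ex vivo cannot be told apart. Dose and duration are not given, nor whether the libraries of an age came from the same animals. Values of 3 libraries are listed by age, at 8, 26 and 52 weeks.

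Epigen is one of the ligands of the epidermal growth factor receptor (EGFR), with amphiregulin (Areg), epiregulin (Ereg), HB-EGF (Hbegf), TGF-alpha (Tgfa) and betacellulin (Btc). These ligands are made as membrane precursors, cut free by ADAM proteases and bound by receptors on the same or neighbouring cells, which signal through the ERK cascade. In epidermis, EGFR signalling acts on keratinocyte growth, migration and differentiation and on the sebaceous glands and follicles, and wounded keratinocytes are known to make several of the ligands. The Epgn gene (ENSMUSG00000035020, chr5:91027464-91035215, plus strand; GRCm38) lies beside Ereg and Areg on mouse chromosome 5. Cldn4 (ENSMUSG00000047501, chr5:134945119-134946934, minus strand), given with Epgn as a marker of these cells, encodes a tight junction claudin. Klf5 (ENSMUSG00000005148, chr14:99298691-99315036, plus strand), the other such marker, encodes an epithelial zinc finger transcription factor.

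The stretches before the start sites of Epgn and Cldn4 are shown because these genes define the cells, and that of Isg15 because the interferon-stimulated genes it stands for were the gene list with the highest share of members that fell in PBMC-sec libraries. They were taken from the RefSeq promoter table on GRCm38.p6, run 5′ to 3′ on the gene's strand and end at the base before the first annotated start. Capitals mark the AP-1 motif TGANTCA in Epgn and Cldn4, and the interferon-stimulated response element in Isg15 (GAAA, any 2 bases, GAAA), both searched on either strand.
Epgn (chr5:91027267-91027463, plus strand): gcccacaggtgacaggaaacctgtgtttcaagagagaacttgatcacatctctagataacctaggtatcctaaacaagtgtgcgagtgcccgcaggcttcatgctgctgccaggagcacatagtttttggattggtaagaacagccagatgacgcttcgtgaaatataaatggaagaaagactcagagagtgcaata
Cldn4 (chr5:134946935-134947184, minus strand): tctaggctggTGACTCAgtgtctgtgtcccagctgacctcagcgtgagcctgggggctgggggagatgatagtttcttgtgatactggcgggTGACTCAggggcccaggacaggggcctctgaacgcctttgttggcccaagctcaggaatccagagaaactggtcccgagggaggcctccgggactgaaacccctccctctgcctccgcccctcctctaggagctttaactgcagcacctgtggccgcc
Isg15 (chr4:156200819-156201068, minus strand): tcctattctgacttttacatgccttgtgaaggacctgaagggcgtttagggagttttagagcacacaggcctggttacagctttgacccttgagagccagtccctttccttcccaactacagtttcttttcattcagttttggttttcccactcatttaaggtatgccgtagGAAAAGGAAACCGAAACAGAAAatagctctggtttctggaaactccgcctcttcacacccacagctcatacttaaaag
The AP-1 letters occurred 2 times in the Cldn4 stretch and were not in the Epgn stretch, and 6.75% of the 32851 promoters of the table held them in their 250 bases before the start. The response element occurred 3 times in the Isg15 stretch, in matches that overlap, and 2.98% of all promoters held it. Of the 16 interferon genes listed, 11 had an entry, and the element was in 6 of them (Bst2, Ifit1, Ifit3, Isg15, Rsad2 and Stat2). A match is a run of letters and not a measured binding site. The letters CCNCNCCC, bound by KLF factors, occurred 1 time in the Cldn4 stretch and not in that of Epgn, and 45.9% of all promoters held them. The grainyhead letters AACCNGTT were in neither stretch and in 1.79% of all promoters.

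The members carried keratinocyte transcripts in every library. All 10 basal markers and all 10 granular markers were detected in the members of each of the 6 libraries, but Krt5, Krt14, Krt1 and Krt10 chose the cells and say nothing of their type. Without them, 8 suprabasal markers summed to between 20533 and 41066 CPM, UMIs of a gene per 1000000 UMIs of the summed cells, in the members of a library, and to between 2646 and 8094 CPM in kept cells outside the keratinocyte gate. The 8 basal markers left summed to 2144 to 3235 CPM in members and 2450 to 4886 CPM in cells outside the gate, ranges that overlap. Within a library these basal sums were higher in members only in 26-week PBMC-sec skin (2992 against 2919 CPM). In 52-week PBMC-sec skin they were nearly level (2449 against 2450 CPM), and elsewhere they were lower in members. Of the 10 neutrophil markers, Retnlg, Csf3r, Ly6g and Ngp were at 0 in all 6 libraries, and S100a8 and S100a9, which keratinocytes also make, gave 98.5% of that list's sum. Summed macrophage and dendritic markers were 208, 441 and 267 CPM in PBMC-sec members and 556, 901 and 450 CPM in untreated members, mostly Cd74 and H2-Aa. Median UMIs per member were 8177, 9012 and 10520.5 in PBMC-sec libraries and 10567, 10291 and 11426 in untreated libraries, above the 1139 to 6010.5 of the other keratinocytes. Median mitochondrial shares of the members were 1.30%, 1.32% and 1.15% in PBMC-sec libraries and 1.18%, 1.11% and 1.80% in untreated ones. The 8-week untreated library stood apart, since 4599 of its barcodes lay in groups whose profiles varied at most 2 times as much as counting error alone. These are called repeated barcodes here, and whether they are copies or shallow cells was not tested. They include 3512 of that library's 6375 keratinocytes, and 12 were members. Any pair of libraries shared 21 to 78 cell barcodes, and at most 1 member.

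The share of keratinocytes that were Epgn-positive was higher in PBMC-sec skin than in untreated skin at every age. At 8 weeks 519 of 3082 keratinocytes were members in PBMC-sec skin (16.8%, exact 95% interval 15.5% to 18.2%), against 246 of 6375 in untreated skin (3.86%, 3.40% to 4.36%). At 26 weeks the shares were 787 of 3246 in PBMC-sec skin (24.2%, 22.8% to 25.8%) and 240 of 2694 in untreated skin (8.91%, 7.86% to 10.0%). At 52 weeks they were 862 of 2284 in PBMC-sec skin (37.7%, 35.7% to 39.8%) and 190 of 1469 in untreated skin (12.9%, 11.3% to 14.8%). The rule expected most members in the 52-week PBMC-sec library, and the data go against that: it held 30.3% of them, while the 3 PBMC-sec libraries together held 76.2%. Within either treatment the share was highest at 52 weeks, before any correction for depth. The intervals cover counting error only, and with 1 pool per condition no test of these shares was made.

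Since a deeper cell is likelier to show 2 UMIs, each keratinocyte was also thinned to 2000 UMIs, with shallower cells left out (933, 470 and 183 in PBMC-sec libraries and 4373, 748 and 277 in untreated libraries). The thinned shares were 8.14%, 9.11% and 18.3% in PBMC-sec libraries, against 2.60%, 2.93% and 3.78% in untreated libraries. Exact 95% intervals of the thinned untreated shares overlapped between ages (1.95% to 3.39%, 2.23% to 3.78% and 2.77% to 5.02%). PBMC-sec over untreated was then 3.14-fold, 3.11-fold and 4.84-fold, against 4.36-fold, 2.72-fold and 2.92-fold before thinning. Without the repeated barcodes the untreated share at 8 weeks was 8.17% and the ratio 2.06-fold. Fibroblasts served as a measure of Epgn UMIs in cells of another type. Of the fibroblasts, defined by the collagen genes of the rule and under 5 keratin UMIs, 1 of 720, 0 of 824 and 3 of 769 had 2 or more Epgn UMIs in PBMC-sec libraries, and 0 of 424, 0 of 1063 and 0 of 714 in untreated libraries. A count of 0 allows a share of up to 0.364% in the 26-week PBMC-sec library, and up to 0.708%, 0.282% and 0.42% in the untreated libraries. Median depths of the fibroblasts were 2235 to 6509 UMIs. At least 1 Epgn UMI was found in 18, 40 and 28 of these fibroblasts in PBMC-sec libraries, and in 9, 13 and 14 in untreated libraries. Over all kept cells outside the keratinocyte gate Epgn had 81.9, 75.3 and 94.4 CPM in PBMC-sec libraries, against 29.5, 17.3 and 14.65 CPM in untreated libraries. Cells outside the gate include those with too many cycling or collagen UMIs, whatever their keratins. Among them, 71, 81 and 99 cells in PBMC-sec libraries and 21, 13 and 15 in untreated libraries had 2 or more Epgn UMIs. Epgn outside the gate thus moved in the same direction as the share of members. The part of such cells in these values, and that of free RNA in the shares, was not tested.

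**Figure D1:**
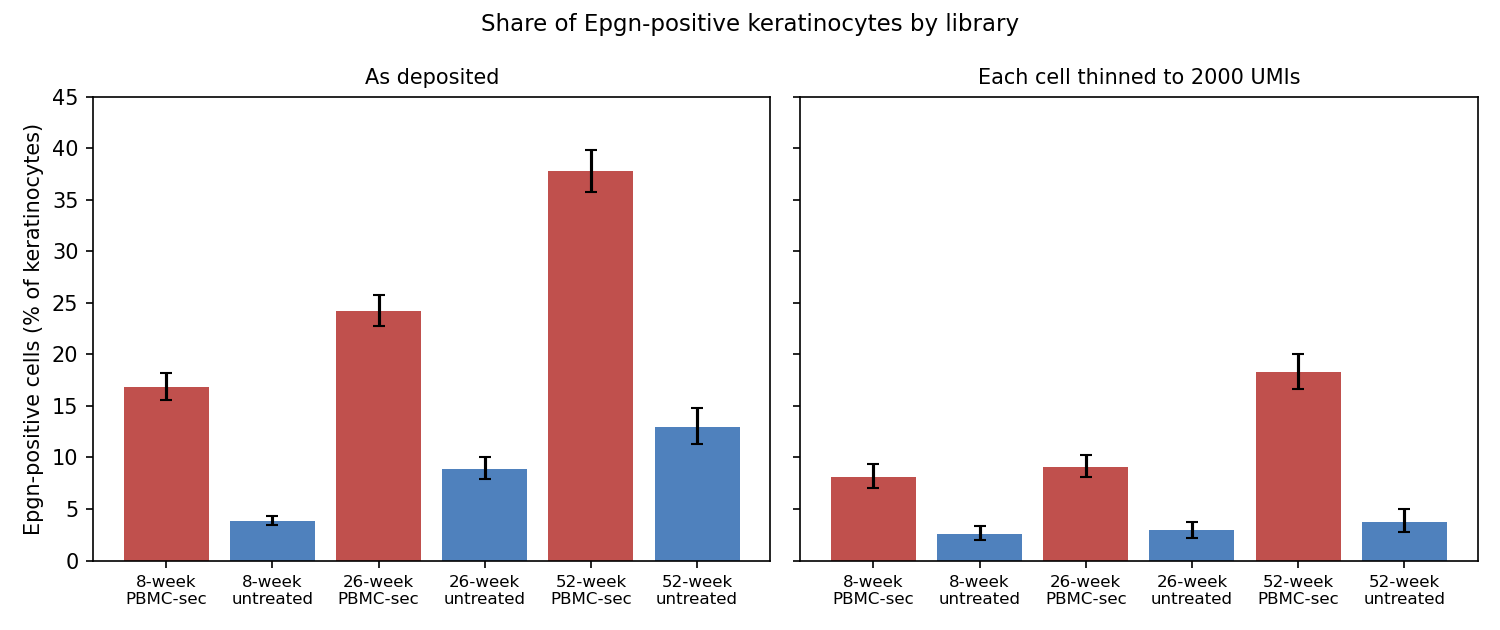
Epgn-positive cells as a percent of keratinocytes (y axis) in each library (x axis), as deposited (left) and with each cell thinned to 2000 UMIs (right). Bars are shares with exact 95% intervals; each red PBMC-sec bar stands above the blue untreated bar of its age, with 37.7% and 12.9% at 52 weeks as deposited.

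Epgn chose the members, so its level in them is given as a description. The members' median Epgn count was 3, 4 and 7 UMIs in PBMC-sec libraries and 3, 3 and 3 UMIs in untreated libraries. Cells with 10 or more Epgn UMIs made up 13.9%, 18.3% and 37.9% of members in PBMC-sec libraries, against 10.98%, 12.1% and 14.2% in untreated libraries, and the highest count was 141 UMIs, in 52-week PBMC-sec skin. As a rate over all UMIs of the members, Epgn had 541, 549 and 806 CPM in PBMC-sec libraries, against 393, 411 and 368 CPM in untreated libraries. The 52-week PBMC-sec library stood highest on each of these measures. Just inside the rule lay 778 keratinocytes with 2 Epgn UMIs and just outside it 2213 with 1. Cldn4 had 538, 1124 and 1291 CPM in the PBMC-sec cells with 2 Epgn UMIs, and 500.2, 592 and 943 CPM in the untreated ones. In cells with 1 Epgn UMI, Cldn4 had 336, 919.8 and 1118 CPM in PBMC-sec libraries and 325, 348 and 831 CPM in untreated libraries. A further 300 cells with 2 or more Epgn UMIs fell outside the keratinocyte gate and are not analysed here.

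The members were next set beside keratinocytes of the same library with 0 Epgn UMIs, up to 3 per member, the nearest in UMIs. The comparators stayed shallower, with medians of 3629, 4057 and 5711 UMIs in PBMC-sec libraries and 6418, 6456.5 and 7094 UMIs in untreated libraries. In 26-week and 52-week PBMC-sec skin they were all the Epgn-zero keratinocytes there were (1888 and 1123 cells). Since the rule used this contrast, differences are described without a test, and a gene was called where it differed at least 2-fold in the same direction in all 6 libraries, on log2(CPM + 10). Of 2731 genes with a mean of at least 50 CPM, 1 was called higher (0.0366%) and 9 were called lower (0.33%), while 501 (18.3%) were higher and 253 (9.26%) lower by any amount in all 6 libraries. The gene called higher was Tubb2a, a beta-tubulin, with a median log2 difference of 1.65.

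Epgn-positive cells also held more transcripts of several other EGFR ligands. Areg had 594, 412 and 437 CPM in Epgn-positive cells, against 166, 127 and 142 CPM in comparators of PBMC-sec libraries. In untreated libraries Areg had 465, 401 and 464 CPM in Epgn-positive cells, against 164, 95.1 and 276 CPM in comparators. Ereg had 454, 307 and 178 CPM in Epgn-positive cells, against 89.5, 79.3 and 113 CPM in comparators of PBMC-sec libraries. In untreated libraries Ereg had 717, 372 and 476 CPM in Epgn-positive cells, against 72.4, 62.0 and 59.0 CPM in comparators. The Ereg gap was smallest in 52-week PBMC-sec skin, where its log2 difference was 0.61, against 1.83 to 3.14 in the other libraries. The median log2 difference was 1.59 for Areg, 2.31 for Ereg, 0.89 for Hbegf, 0.36 for Tgfa and 0.32 for Nrg1, the neuregulin that binds the related receptor ERBB3. All 5 genes of the ligand list that were abundant enough, Nrg1 among them, were higher in all 6 libraries, beside 18.3% of all genes tested. Areg and Ereg were above their comparators at every age and under both treatments. The receptor gene Egfr differed little (median log2 difference -0.15) and did not keep 1 direction.

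Of the 2 genes named with Epgn as markers, Cldn4 was shifted upward in the members but not called at 2-fold, and Klf5 kept no single direction. Cldn4 had 703, 1442 and 1557 CPM in Epgn-positive cells, against 375, 721 and 1122 CPM in comparators of PBMC-sec libraries. In untreated libraries Cldn4 had 769.9, 853 and 1175 CPM in Epgn-positive cells, against 213, 225 and 404 CPM in comparators. Cldn4 was higher in the members of all 6 libraries, by a median of 1.25 on the log2 scale and least in 52-week PBMC-sec skin (0.47). Klf5 had 506, 626 and 605 CPM in Epgn-positive cells, against 524, 524 and 472 CPM in comparators of PBMC-sec libraries. In untreated libraries Klf5 had 369.9, 330.3 and 519.9 CPM in Epgn-positive cells, against 298, 327 and 455 CPM in comparators. Its median difference was 0.22, and it was lower in the members at 8 weeks with PBMC-sec. Set beside the single comparator nearest in depth, the medians were 1.119 for Cldn4 and 0.34 for Klf5. At least 1 Cldn4 UMI was found in 51.6% to 78.3% of the members of a library and in 26.4% to 59.5% of these comparators. The ranges overlap between libraries, but within each library the share was higher in the members. These comparators were still shallower in 52-week PBMC-sec skin, with a median of 7550.5 UMIs against 10520.5 in members.

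Wound and stress keratins, which keratinocytes switch on at wound edges, were higher in the members of all 6 libraries in 4 of 4 cases: Krt6a (0.63), Krt6b (1.08), Krt16 (0.85) and Krt17 (1.34, median log2 differences). Krt17 had 4704, 5256 and 3787 CPM in Epgn-positive cells, against 2219, 3597 and 3375 CPM in comparators of PBMC-sec libraries. In untreated libraries Krt17 had 10197, 13536 and 7586 CPM in Epgn-positive cells, against 3264, 4488 and 2213 CPM in comparators. The gap in Krt17 was wider in each untreated library than in any PBMC-sec library. The comparators were shallower in PBMC-sec libraries than in untreated ones, and the part of this in the gap was not tested. Of 16 epithelial transcription factors 7 were higher in all 6 libraries and 0 were lower, among them Grhl3, a grainyhead factor of barrier repair (1.03), Ovol1 (0.86) and Elf3 (0.71). Desmosome genes were higher in 6 and lower in 0 of 12 cases, keratinocyte cytokines higher in 6 and lower in 3 of 11, NF-kB targets and antimicrobial genes higher in 6 and lower in 0 of 12, and migration and matrix genes higher in 8 and lower in 1 of 20. Ribosomal protein genes were higher in 0 and lower in 5 of 12 cases. Of all genes, 18.3% were higher and 9.26% lower.

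The genes called lower were 7 genes of the Lce1 family, late cornified envelope proteins of the outermost living layer, with Krt15 of the follicle bulge and basal layer and Krt79 of the upper follicle. Lce1a2 had 28.5, 114 and 28.8 CPM in Epgn-positive cells, against 144, 396 and 1032 CPM in comparators of PBMC-sec libraries. In untreated libraries Lce1a2 had 26.9, 19.2 and 14.8 CPM in Epgn-positive cells, against 958, 368 and 1021 CPM in comparators. The other Lce1 genes called were Lce1a1, Lce1b, Lce1c, Lce1d, Lce1l and Lce1m, near copies whose reads the counting may split. Krt15 had 28.7, 14.9 and 24.6 CPM in Epgn-positive cells, against 139, 89.8 and 178 CPM in comparators of PBMC-sec libraries. In untreated libraries Krt15 had 71.0, 21.6 and 37.5 CPM in Epgn-positive cells, against 327, 218 and 111 CPM in comparators. Against the nearest single comparator the Lce1 calls stayed, with Lce1f and Lce1k added, and those of Krt15 and Krt79 were lost. One library decided the count of higher genes: without 52-week PBMC-sec skin 24 genes were called higher, led by Ereg, Slpi (an antiprotease), Krt77 (a suprabasal keratin) and Slc5a1 (a glucose transporter). Without 26-week PBMC-sec skin 4 were called, and without either 8-week or 52-week untreated skin 2. In the 52-week PBMC-sec library granular markers summed to 9912 CPM in members and 23704 CPM in comparators, and elsewhere to 11840 to 14750 CPM in members and 9171 to 12423 CPM in comparators.

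**Figure D2:**
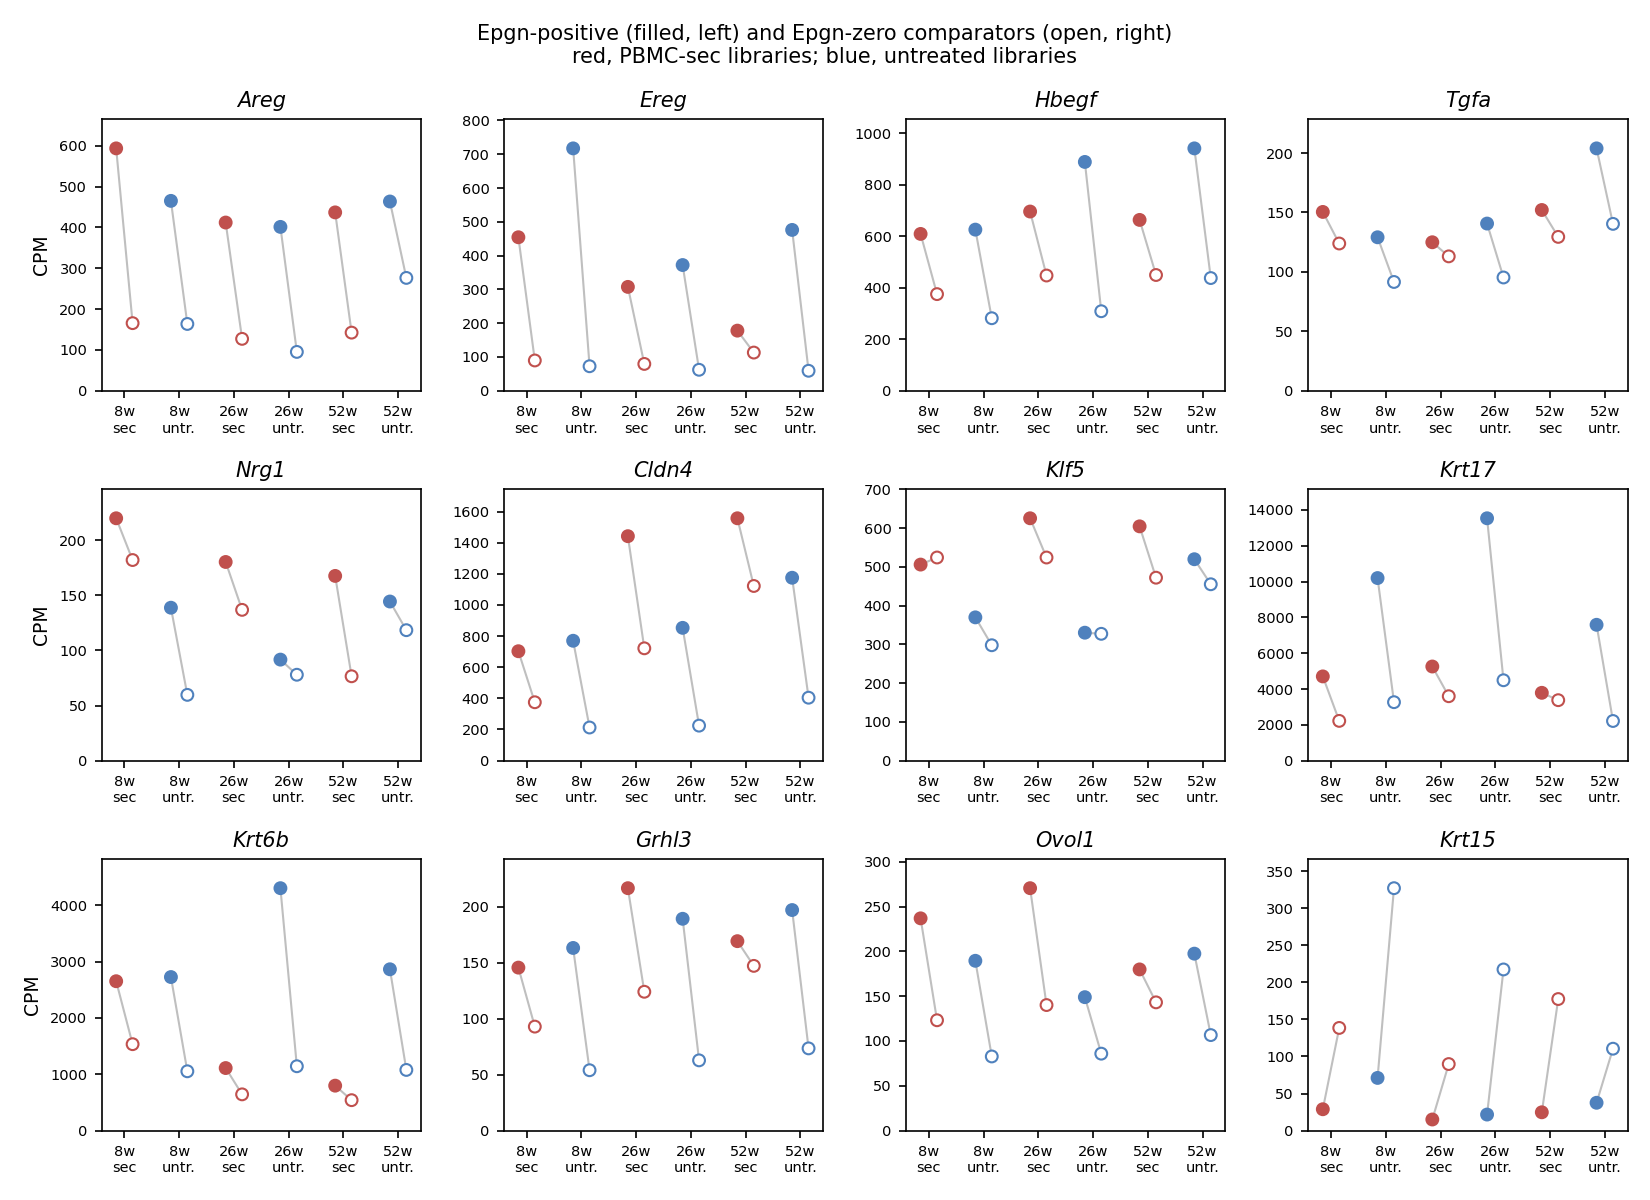
CPM (y axis, linear from 0) of 12 genes in Epgn-positive cells (filled points) and Epgn-zero comparators (open points) of each library (x axis: age in weeks, PBMC-sec as sec, untreated as untr.), joined by a grey line. Areg, Ereg, Hbegf, Tgfa, Nrg1, Cldn4, Krt17, Krt6b, Grhl3 and Ovol1 were higher in the filled points of all 6 libraries, Krt15 was lower, and Klf5 was mixed.

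The members were spread over several expression states. Clustering of all keratinocytes gave 25 groups, and 9 of them held at least 100 members each. Cluster 9, led by Nppb (a natriuretic peptide), Mmp10, Rrad, Tslp and Has2, held 704 members (24.8%). Cluster 5, led by Pinlyp, Gsta4 and Il33 (an alarmin cytokine), held 438 (15.4%), and cluster 12, led by the defensin gene Defb14, Sprr2f and genes of the Lce3 family, held 380 (13.4%). These 3 clusters held members of all 6 libraries. Cluster 9 held 191, 284 and 206 members of PBMC-sec libraries and 10, 11 and 2 of untreated ones. Cluster 5 held 97, 176 and 130 against 9, 12 and 14, and cluster 12 held 62, 101 and 115 against 29, 50 and 23. Cluster 3 held 0, 0 and 0 against 24, 27 and 16, and cluster 19 held 0, 0 and 1 against 20, 25 and 14. Cluster 14, led by Mt4 and the lipid elongase gene Elovl3, held 233 members, of which 95.7% came from 52-week PBMC-sec skin, so it may be that library and not a state. Cluster 7, led by Mmp9, Pglyrp2 and Csta3, held 176. Cluster 6, led by Cd74, H2-Aa and Cd207 of Langerhans cells, held 33 members (1.16%). The clusters are given by number, and nothing is read from their uneven split between treatments. Genes that lead them, such as Nppb, Tslp and Mmp9, themselves differed with treatment.

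Members differed in the balance of the 4 keratins that chose the cells, which is given as a description and not as their layer. Krt1 and Krt10 UMIs, of the suprabasal layers, outnumbered those of Krt5 and Krt14, of the basal layer, in 11.2%, 10.2% and 8.00% of members in PBMC-sec libraries and in 26.8%, 29.2% and 27.9% in untreated libraries. The same held for 4.47%, 6.41% and 20.2% of Epgn-zero keratinocytes in PBMC-sec libraries and for 8.19%, 6.996% and 9.62% in untreated ones. Nppb reached 2 UMIs in 36.8%, 47.3% and 40.4% of PBMC-sec members, against 21.5%, 25.4% and 22.6% of untreated members. Neither the keratin shares nor the Nppb shares were corrected for depth. In turn, 44.2%, 39.6% and 58.0% of keratinocytes with at least 2 Nppb UMIs were members in PBMC-sec libraries, and 36.1%, 39.4% and 53.1% in untreated libraries. Among the members of a library, the Pearson correlation of Epgn with Cldn4, Klf5, Areg, Ereg, Hbegf, Tgfa, Nppb, Krt6a and Sprr1b lay between -0.28 and 0.25 over 190 to 862 cells that share a library and differ in depth.

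Within Epgn-positive keratinocytes, PBMC-sec and untreated skin differed in many genes. UMIs were summed over the members of each library and tested by edgeR's quasi-likelihood test with age and treatment as factors and Benjamini-Hochberg adjustment. Genes of the rule were left out of all counts. Of 10201 genes tested, 932 were higher (9.14%) and 1094 lower (10.7%) in PBMC-sec members at an adjusted p under 0.05, or 19.9% in all. Each condition has 1 library, so the test takes its spread from how far the treatment difference varied with age, and the p-values do not measure the spread between replicate libraries or animals. Without scaling factors 472 genes were higher and 1056 lower, which takes the share of higher calls to 30.9% from 46.0% and shifts the median of all genes by -0.13 (log2). Without the 26-week pair 335 were higher and 379 lower, without the 52-week pair 621 and 744, and without the 8-week pair 1139 and 1184. In members of cluster 12 alone, where cells of both treatments sat together, 132 were higher and 80 lower. Of the 1316 calls that could be tested there, 86.2% kept their direction and 153 passed again in it. Those cells are part of the members, so the agreement in direction is not independent of the calls. DESeq2 called 543 higher and 621 lower. Summed suprabasal markers were 27672, 26570.05 and 21404 CPM in PBMC-sec members and 42186, 43339 and 35441 CPM in untreated members, and upper follicle markers, mostly Krt17 and Cst6, 6752, 7327 and 5374 CPM in PBMC-sec members and 14099, 17999.8 and 10714 CPM in untreated members. The part of this make-up in the counts was not tested.

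Several of the genes with the largest increases had 0 UMIs in untreated members. Slc6a12, a transporter of betaine and GABA, had 24, 20 and 101 UMIs in PBMC-sec libraries, against 0, 0 and 0 UMIs in untreated libraries, at least 15.6-fold higher when 3 UMIs are allowed over the untreated group. By the same bound Serpini1, a serine protease inhibitor, was at least 10.5-fold higher, the metallothionein Mt3 at least 9.25-fold and the G protein-coupled oestrogen receptor Gper1 at least 6.45-fold. H19, an imprinted noncoding RNA, had 21.2, 3.22 and 10.0 CPM in PBMC-sec libraries, against 0, 0 and 0.36 CPM in untreated libraries. Rnf183, a ubiquitin ligase, had 17.2, 6.45 and 8.97 CPM in PBMC-sec libraries, against 0, 0.342 and 0 CPM in untreated libraries. The small heat shock gene Hspb2 (18.5, 8.11 and 10.7 against 0, 0.342 and 0.721 CPM) and Lypd1 (5.59, 3.78 and 3.45 against 0.324, 0 and 0 CPM) rose too. Gm44040 (5.21, 2.89 and 3.37 against 0.324, 0 and 0 CPM) and the metallothionein Mt4 (0.193, 5.45 and 8.67 against 0, 0 and 0.36 CPM) completed the 10. Mt4 in 8-week PBMC-sec skin lay below its 52-week untreated value. In kept cells outside the keratinocyte gate, the highest library values of these 10 genes ran from 0.521 CPM (Gm44040) to 75.2 CPM (Mt3). For Hspb2 the highest was 43.8 CPM. The part of free RNA in the counts of these 10 genes was not tested. Akr1b3, aldose reductase, rose at higher levels, with 1102, 617 and 885 CPM in PBMC-sec libraries, against 40.6, 32.5 and 42.2 CPM in untreated libraries (log2 change 4.60 ± 0.26, adjusted p = 5.4e-08). Restricted to cluster 12, the call of Rnf183 (3.97) ended (log2 estimate, adjusted p = 0.0533).

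The largest decreases included a pair of alcohol dehydrogenase genes. Adh6a had 2.89, 0.445 and 0.383 CPM in PBMC-sec libraries, against 127, 67.4 and 80.3 CPM in untreated libraries (log2 change -6.41 ± 0.30, adjusted p = 7.69e-09). Adh1 had 0.964, 0.333 and 0.614 CPM in PBMC-sec libraries, against 23.0, 18.5 and 16.6 CPM in untreated libraries (-4.77 ± 0.35, adjusted p = 6.39e-07). Wfdc12, a secreted antiprotease, had 5.79, 2.45 and 1.23 CPM in PBMC-sec libraries, against 128, 66.4 and 309 CPM in untreated libraries (-5.58 ± 0.41, adjusted p = 6.54e-07). Skint9, of a family tied to epidermal T cells, had 3.66, 1.78 and 0.844 CPM in PBMC-sec libraries, against 26.9, 25.7 and 49.0 CPM in untreated libraries (-4.04 ± 0.34, adjusted p = 2.79e-06). Mslnl was at least 21.7-fold and Prl8a9 at least 22.7-fold lower, with 0 UMIs each in PBMC-sec members, against 21 UMIs of Mslnl and 22 of Prl8a9 in untreated ones. Prl8a1, Cyp17a1 (a steroid hydroxylase), Pde1b and Ccl22 (a chemokine) made up the rest, at under 10 CPM in every library. Outside the gate, the highest library values of these 10 decreasing genes ran from 0.217 CPM (Mslnl) to 165 CPM (Wfdc12), with Ccl22 at 80.1 CPM. The part of free RNA in their counts was not tested. Of these 20 genes, 18 passed in the same direction over all keratinocytes of the gate, in which 827 of 13251 genes were higher (6.24%) and 913 lower (6.89%) in PBMC-sec skin (13.1% in all). Those keratinocytes include the members, and without the members 294 were higher and 244 lower. Without the 8-week pair the gate gave 1619 higher and 1647 lower genes, and without the 26-week pair 302 and 383. Without scaling 337 of the gate's genes were higher and 1824 lower, so the share of higher calls was 15.6% there and 47.5% with it. The genes that led the wider gate were Grin2c, Rnf183, Slc6a12 and Gm14546 upward and Il17c, Mslnl, Adh6a and Psg28 downward. Cluster 12 by itself ended the call of Skint9 (-1.41) (log2 estimate, adjusted p = 0.184).

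**Figure D3:**
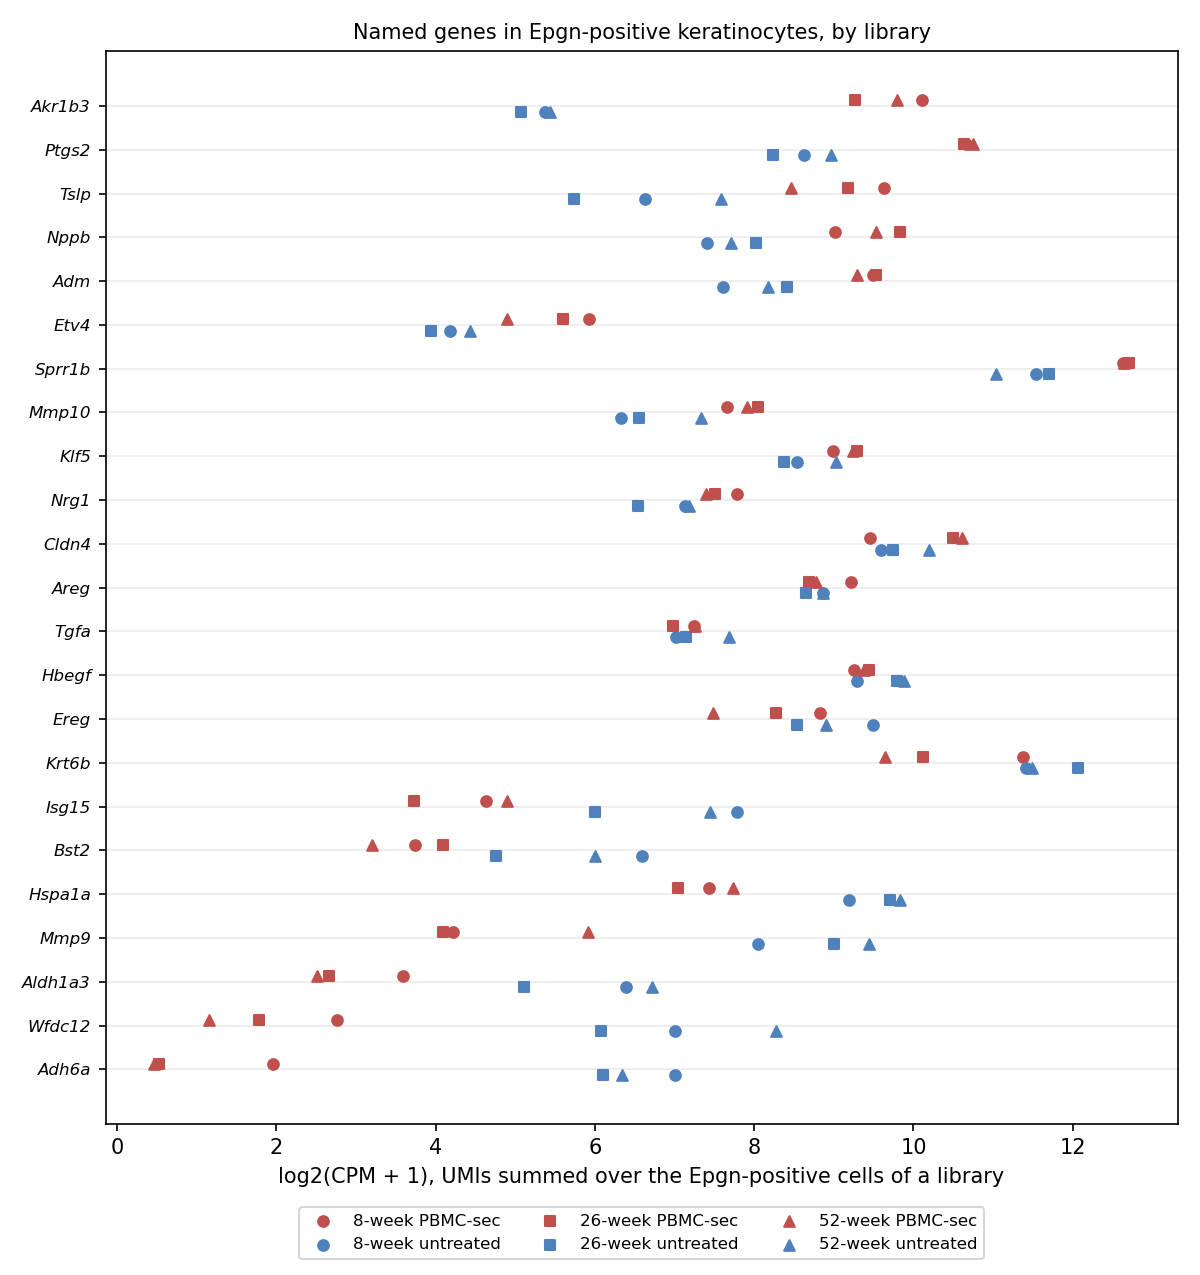
log2(CPM + 1) (x axis) of 23 genes (y axis) in the Epgn-positive cells of each library (points; red PBMC-sec above, blue untreated below on each line; circles 8, squares 26 and triangles 52 weeks). Red and blue points are apart for Akr1b3, with 617 to 1102 CPM in red and 32.5 to 42.2 CPM in blue, and for Adh6a, and they mix for Areg, Tgfa and Cldn4.

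The ligand genes did not move as a group with PBMC-sec. Of 6 genes of the ligand list tested besides Epgn, Nrg1 among them, 2 rose, 1 fell and 3 did not pass. Their median log2 change was 0.12, beside 0.0048 over all genes, of which 9.14% rose and 10.7% fell. The counts of the gene lists that follow are read against these 2 shares. Where the groups of a gene are said to be apart, the share of all genes of which this held was not counted. Such statements are description only. Nrg1 rose, with 220.1, 180.4 and 168 CPM in PBMC-sec libraries, against 139, 91.7 and 144 CPM in untreated libraries (0.75 ± 0.18, adjusted p = 0.00955) and no overlap between groups. Btc passed upward (1.67 ± 0.47, adjusted p = 0.022) on 1 library, with 50.5, 7.78 and 5.37 CPM in PBMC-sec libraries, against 3.89, 7.53 and 3.60 CPM in untreated libraries. Few members carried Btc, and the share that did was lower with PBMC-sec at each age. It was 2.31%, 1.27% and 1.39% in PBMC-sec libraries and 2.85%, 3.75% and 4.74% in untreated libraries. Ereg fell, with 454, 307 and 178 CPM in PBMC-sec libraries, against 717, 372 and 476 CPM in untreated libraries (-0.65 ± 0.22, adjusted p = 0.0477), lower in PBMC-sec at each age. Areg had 594, 412 and 437 CPM in PBMC-sec libraries, against 465, 401 and 464 CPM in untreated libraries (0.23 ± 0.22, adjusted p = 0.479). Hbegf (-0.17 ± 0.23, adjusted p = 0.66) and Tgfa (0.01 ± 0.18, adjusted p = 0.986) did not pass either. Without the 8-week pair of libraries the call of Btc and Ereg was lost, at an adjusted p of 0.141 to 0.401. With the 26-week pair left out, Nrg1 and Ereg no longer passed (adjusted p = 0.191 to 0.213). Leaving out the 52-week pair ended the call of Ereg (adjusted p = 0.0916). Among cluster 12 members Nrg1 (1.31) and Ereg (-0.02) missed the threshold (log2 estimates, adjusted p 0.188 to 0.991). With members thinned to 2000 UMIs the calls of Nrg1 (0.50) and Ereg (-0.58) ended (log2 estimates, adjusted p 0.0652 to 0.122). By DESeq2 Btc did not pass (adjusted p = 0.337). Removing doublets ended the call of Ereg (adjusted p = 0.0798). Removing repeated barcodes ended that of Ereg (adjusted p = 0.0505). With no filter on low counts beyond 5 UMIs Ereg did not pass (adjusted p = 0.0545). In members of cluster 12 alone the estimate of Btc was -2.26.

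Of 17 receptor, sheddase and inhibitor genes, 2 rose and 1 fell (median 0.25). Those that rose were Rhbdf1, the iRhom that helps the sheddase ADAM17 mature (0.83 ± 0.18, adjusted p = 0.00425), and Spry2, a feedback inhibitor of the ERK pathway (0.84 ± 0.27, adjusted p = 0.0395). Erbb2, the co-receptor without a ligand of its own, had 39.5, 30.7 and 24.3 CPM in PBMC-sec libraries, against 45.1, 49.3 and 60.2 CPM in untreated libraries (-0.60 ± 0.18, adjusted p = 0.0283). Egfr did not pass (0.40 ± 0.19, adjusted p = 0.155). Among 16 ERK-induced genes 3 rose and 1 fell (median 0.12). Etv4, an ETS factor, rose most, with 60.0, 47.3 and 28.7 CPM in PBMC-sec libraries, against 17.2, 14.4 and 20.5 CPM in untreated libraries (1.46 ± 0.20, adjusted p = 0.000198). Ier3 (0.91) and Phlda1 (0.83) rose, and Egr2 fell (-0.89, adjusted p = 0.0251, 0.0338 and 0.0029 for the 3 genes in turn). In members of cluster 12 alone Erbb2 stood at 0.36. With the 8-week pair left out, Ier3 and Phlda1 no longer passed (adjusted p = 0.116 to 0.132). Leaving out the 26-week pair ended the call of Spry2, Erbb2, Ier3 and Phlda1 (adjusted p = 0.252 to 0.38). Without the 52-week pair of libraries the call of Spry2 and Erbb2 was lost, at an adjusted p of 0.152 to 0.159. In cluster 12 alone Rhbdf1 (1.122), Ier3 (0.19), Phlda1 (0.23) and Egr2 (-0.24) did not pass (log2 estimates, adjusted p 0.286 to 0.798). Thinned to 2000 UMIs per cell, Rhbdf1 (0.48), Erbb2 (-0.74), Phlda1 (0.73) and Egr2 (-0.56) did not pass (log2 estimates, adjusted p 0.0518 to 0.285). DESeq2 did not call Spry2 and Erbb2 (adjusted p 0.128 to 0.159). Without scaling factors Rhbdf1 and Spry2 did not pass (adjusted p 0.0696 to 0.207).

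Of the genes that mark the cells, Klf5 passed upward by a small margin and Cldn4 did not pass. Klf5 had 506, 626 and 605 CPM in PBMC-sec libraries, against 369.9, 330.3 and 519.9 CPM in untreated libraries (0.66 ± 0.22, adjusted p = 0.0485), and the highest untreated library overlapped the lowest PBMC-sec library. Cldn4 had 703, 1442 and 1557 CPM in PBMC-sec libraries, against 769.9, 853 and 1175 CPM in untreated libraries (0.48 ± 0.28, adjusted p = 0.254). Among 19 epithelial transcription factors 3 rose and 1 fell: Klf5, Tfap2a (0.78, adjusted p = 0.00947) and Gata3 (0.63, adjusted p = 0.0343) upward and Elf5 (-0.84, adjusted p = 0.0206) downward. Of 14 tight junction genes 0 rose and 2 fell, Cldn23 (-1.35 ± 0.22, adjusted p = 0.000519) and Tjp3 (-0.69 ± 0.23, adjusted p = 0.0481). Cldn1, the main claudin of epidermis, had 337, 744 and 806 CPM in PBMC-sec libraries, against 293, 347 and 646 CPM in untreated libraries and did not pass (adjusted p = 0.0652). Within cluster 12 the estimate of Tjp3 was 0.95. Leaving out the 8-week pair ended the call of Klf5 and Elf5 (adjusted p = 0.0838 to 0.22). Without the 26-week pair of libraries the call of Klf5, Tfap2a, Gata3, Elf5 and Tjp3 was lost, at an adjusted p of 0.0576 to 0.443. With the 52-week pair left out, Gata3 and Tjp3 no longer passed (adjusted p = 0.0664 to 0.29). Restricted to cluster 12, the calls of Klf5 (0.29), Tfap2a (0.39), Gata3 (0.51), Elf5 (-0.41) and Cldn23 (-0.85) ended (log2 estimates, adjusted p 0.319 to 0.656). With members thinned to 2000 UMIs the calls of Klf5 (0.58), Elf5 (-1.10), Cldn23 (-0.28) and Tjp3 (-0.43) ended (log2 estimates, adjusted p 0.0788 to 0.802). By DESeq2 Elf5 and Tjp3 did not pass (adjusted p 0.0816 to 0.222). Unscaled, the fit did not call Klf5, Gata3 and Tjp3 (adjusted p 0.0523 to 0.0978). Removing doublets ended the call of Tjp3 (adjusted p = 0.0548). Removing repeated barcodes ended that of Tjp3 (adjusted p = 0.0513). With at least 3 Epgn UMIs per member Tjp3 did not pass (adjusted p = 0.0592).

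Desmosome genes, which hold keratinocytes together, fell in 4 of 15 cases and rose in 1 (median -0.33), beside 10.7% and 9.14% of all genes. Dsc2, a desmocollin, had 6.75, 7.002 and 15.6 CPM in PBMC-sec libraries, against 22.1, 33.2 and 38.2 CPM in untreated libraries (-1.56 ± 0.25, adjusted p = 0.000563). The cadherins Dsg1a (-0.88) and Dsg1b (-0.75), which are near copies, and the plakin Ppl (-0.83) also fell, and Dsg2, a desmoglein of simple epithelia, rose (0.68). Their adjusted p were 0.0164, 0.00741, 0.00741 and 0.0444 in that order. Wound keratins gave 1 rise and 1 fall in 7 genes. Krt6b fell, with 2651, 1109 and 796 CPM in PBMC-sec libraries, against 2725, 4303 and 2863 CPM in untreated libraries (-1.16 ± 0.37, adjusted p = 0.0362), its 8-week values nearly level. Krt17 was lower in each PBMC-sec library but did not pass (-1.03 ± 0.38, adjusted p = 0.0663), and Krt18, a simple epithelial keratin, rose, at low counts (1.27, adjusted p = 0.00924). Within cluster 12 the estimates of Dsg1a (0.69) and Dsg2 (-0.34) had the other sign. Without the 26-week pair of libraries the call of Dsg2, Dsg1a, Dsg1b, Ppl and Krt6b was lost, at an adjusted p of 0.135 to 0.544. With the 52-week pair left out, Dsg2, Dsg1a, Krt6b and Krt18 no longer passed (adjusted p = 0.0672 to 0.138). Cluster 12 by itself ended the calls of Dsg1b (-0.53), Ppl (-0.40) and Krt6b (-0.70) (log2 estimates, adjusted p 0.332 to 0.54). Thinned to 2000 UMIs per cell, Dsg2 (0.57) did not pass (log2 estimates, adjusted p = 0.202). DESeq2 did not call Dsg2 and Krt6b (adjusted p 0.138 to 0.204). Without scaling factors Dsg2 and Krt18 did not pass (adjusted p 0.062 to 0.217).

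Cornified envelope genes, the building blocks of the dead outer layer, rose in 5 of 23 cases and fell in 1 (median 0.25), beside 9.14% and 10.7% of all genes, and 3 of the 5 are near copies of the Sprr2 family. Sprr1b had 6341, 6672 and 6391 CPM in PBMC-sec libraries, against 2967, 3329.7 and 2094 CPM in untreated libraries (1.36 ± 0.36, adjusted p = 0.0156), its groups apart. Flg, filaggrin, had 638, 371 and 341 CPM in PBMC-sec libraries, against 268, 125 and 242 CPM in untreated libraries (1.23 ± 0.21, adjusted p = 0.000943). Sprr2k (2.61 ± 0.28, adjusted p = 2.42e-05), Sprr2a1 (1.23 ± 0.21, adjusted p = 0.000992) and Sprr2a3 (1.31 ± 0.22, adjusted p = 0.000726) rose too, and their reads may be split among them. Ivl, involucrin, fell (-0.72 ± 0.23, adjusted p = 0.0362). With the 8-week pair left out, Sprr1b and Ivl no longer passed (adjusted p = 0.0929 to 0.297). Leaving out the 26-week pair ended the call of Sprr1b and Flg (adjusted p = 0.0651 to 0.202). Without the 52-week pair of libraries the call of Ivl was lost, at an adjusted p of 0.0759. Among cluster 12 members Sprr1b (0.78) and Ivl (-0.06) missed the threshold (log2 estimates, adjusted p 0.332 to 0.946). By DESeq2 Ivl did not pass (adjusted p = 0.0535).

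Of 21 cytokine genes 2 rose and 5 fell (median -0.27), beside 9.14% and 10.7% of all genes. Tslp, a cytokine of damaged epithelium that acts on dendritic cells, had 791, 578 and 351 CPM in PBMC-sec libraries, against 97.7, 52.4 and 191 CPM in untreated libraries (2.58 ± 0.33, adjusted p = 0.000105), and its groups did not overlap. The chemokine Cxcl16 rose (0.71 ± 0.22, adjusted p = 0.032). Il23a, a subunit of IL-23, had 1.74, 2.78 and 4.29 CPM in PBMC-sec libraries, against 7.79, 36.6 and 20.9 CPM in untreated libraries (-2.62 ± 0.34, adjusted p = 0.000113). Il18 (-1.51 ± 0.22, adjusted p = 0.000221), Il1a (-1.15 ± 0.29, adjusted p = 0.0115), Il24 (-1.05 ± 0.23, adjusted p = 0.00453) and Lif (-0.97 ± 0.31, adjusted p = 0.0411) also fell. Leaving out the 8-week pair ended the call of Lif (adjusted p = 0.153). Without the 26-week pair of libraries the call of Cxcl16, Il1a, Il24 and Lif was lost, at an adjusted p of 0.0646 to 0.258. With the 52-week pair left out, Cxcl16, Il24 and Lif no longer passed (adjusted p = 0.0521 to 0.139). In cluster 12 alone Tslp (1.42), Cxcl16 (0.45), Il18 (-0.62) and Il1a (-0.33) did not pass (log2 estimates, adjusted p 0.105 to 0.727). DESeq2 did not call Lif (adjusted p = 0.135). With at least 3 Epgn UMIs per member Lif did not pass (adjusted p = 0.0579).

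Among 18 NF-kB targets and antimicrobial genes 3 rose and 5 fell, beside 9.14% and 10.7% of all genes. Ptgs2, the inducible cyclooxygenase, had 1614, 1591 and 1715 CPM in PBMC-sec libraries, against 393, 301 and 498 CPM in untreated libraries (2.21 ± 0.26, adjusted p = 6.38e-05). Icam1, an adhesion molecule, and Nfkbiz, a nuclear NF-kB cofactor, rose as well (0.91 and 0.83, adjusted p = 0.00203 and 0.0121). The antimicrobial genes Lcn2 (-1.98), S100a8 (-2.004), Slpi (-1.44) and Defb6 (-1.13) and the NF-kB target Tnfaip2 (-1.23) fell, with adjusted p of 0.000109, 0.0171, 0.0128, 0.00716 and 0.0143 in that order. S100a8 had 159, 98.3 and 328 CPM in PBMC-sec libraries, against 982, 1042 and 343 CPM in untreated libraries, so its fall lay at 8 and 26 weeks. Summed neutrophil markers, nearly all S100a8 and S100a9, were 737, 328 and 873 CPM in PBMC-sec members and 2473, 2693 and 873 CPM in untreated members. Lcn2 reached 511 CPM in kept cells outside the keratinocyte gate, and the part of free RNA in its counts was not tested. Without the 8-week pair of libraries the call of Slpi was lost, at an adjusted p of 0.186. With the 26-week pair left out, Icam1, Nfkbiz, S100a8, Slpi, Defb6 and Tnfaip2 no longer passed (adjusted p = 0.0584 to 0.307). Restricted to cluster 12, the calls of Nfkbiz (0.46), Lcn2 (-0.55), Defb6 (-0.65) and Tnfaip2 (-0.81) ended (log2 estimates, adjusted p 0.212 to 0.621). With members thinned to 2000 UMIs the calls of Icam1 (0.65) and Tnfaip2 (-0.995) ended (log2 estimates, adjusted p 0.05 to 0.15). By DESeq2 S100a8 did not pass (adjusted p = 0.206).

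Genes induced by type I interferon were lower in PBMC-sec members. Of 11 tested, 10 fell and 0 rose, with a median log2 change of -1.80, beside 10.7% of all genes that fell. Isg15, a ubiquitin-like modifier, had 23.7, 12.2 and 28.8 CPM in PBMC-sec libraries, against 220.0, 63.3 and 173 CPM in untreated libraries (-2.58 ± 0.23, adjusted p = 3.67e-06). Bst2, tetherin, had 12.3, 16.1 and 8.21 CPM in PBMC-sec libraries, against 95.7, 26.0 and 63.1 CPM in untreated libraries (-2.09 ± 0.32, adjusted p = 0.000362). Neither gene overlapped between groups. Usp18 (-2.10), Rtp4 (-2.41), Xaf1 (-1.80), Ifit1 (-2.79), Ifi27l2a (-1.55) and the signal genes Stat2 (-1.10) and Irf7 (-1.05) also fell, with adjusted p between 0.00014 and 0.0179. The untreated members of the 26-week library had the lowest untreated values of Isg15 and Bst2.

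The 15 interferon genes in the files summed to 148, 95.4 and 109 CPM in PBMC-sec members and 645, 217 and 479 CPM in untreated members. In the Epgn-zero comparators the sums were 238, 116 and 102 CPM in PBMC-sec libraries and 749, 312 and 678 CPM in untreated libraries. In kept cells outside the keratinocyte gate they were 1019, 760.2 and 2405 CPM in PBMC-sec libraries and 3967, 3479 and 3430.1 CPM in untreated libraries. Free RNA of those cells and the macrophage and dendritic markers given above move in the same direction, and their part in the result was not tested. With the 8-week pair left out, Ifi27l2a no longer passed (adjusted p = 0.108). Leaving out the 52-week pair ended the call of Irf7 (adjusted p = 0.0687). Cluster 12 by itself ended the calls of Isg15 (-1.50), Ifi27l2a (-2.47) and Stat2 (-0.41) (log2 estimates, adjusted p 0.0501 to 0.722). Thinned to 2000 UMIs per cell, Irf7 (-0.94) did not pass (log2 estimates, adjusted p = 0.275). DESeq2 did not call Ifi27l2a (adjusted p = 0.304).

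**Figure D4:**
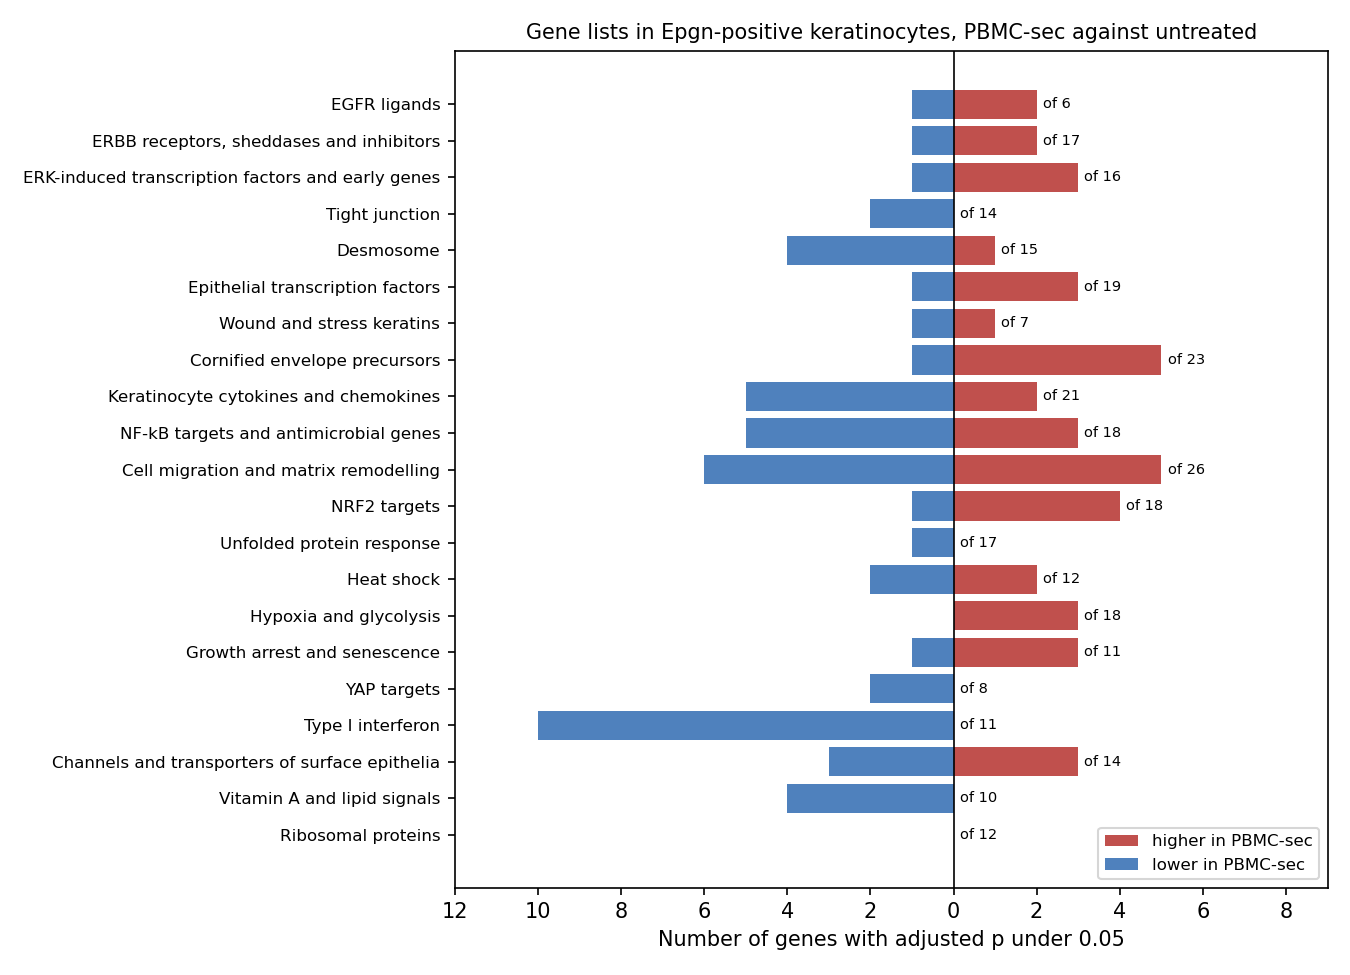
Number of genes of each list (y axis) that passed edgeR's quasi-likelihood test in Epgn-positive keratinocytes, higher in PBMC-sec (red, to the right) or lower (blue, to the left), with the number tested beside each bar. The type I interferon list has 10 of 11 genes lower and 0 higher.

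Migration and matrix genes changed in both directions, with 5 of 26 up and 6 down, beside 9.14% and 10.7% of all genes. Mmp9, the gelatinase B, had 17.6, 16.0 and 59.5 CPM in PBMC-sec libraries, against 264, 511 and 695 CPM in untreated libraries (-3.99 ± 0.31, adjusted p = 1.26e-06). Mmp10, stromelysin 2, had 202, 265 and 239 CPM in PBMC-sec libraries, against 79.2, 93.1 and 161 CPM in untreated libraries (1.27 ± 0.19, adjusted p = 0.000334). Neither overlapped between groups. Lamb3 and Lama3, laminin chains of the epidermal basement membrane, fell (-0.93 ± 0.20 and -0.93 ± 0.23, adjusted p = 0.00382 and 0.0103). Lamb3 had 205, 146 and 161 CPM in PBMC-sec libraries, against 317, 288 and 475 CPM in untreated libraries. Tenascin C (Tnc, -0.86, adjusted p = 0.00324) and Timp1, an inhibitor of these proteases (-2.49, adjusted p = 0.00457), fell as well. Plau (0.64), Mmp1b (0.74), Itga3 (0.62) and Myo10 (0.63) rose, with adjusted p between 0.0102 and 0.0464. Itga3 and Myo10 were at -0.22 and -0.072 within cluster 12. Leaving out the 26-week pair ended the call of Lamb3, Lama3, Tnc, Itga3 and Myo10 (adjusted p = 0.103 to 0.407). Without the 52-week pair of libraries the call of Plau and Itga3 was lost, at an adjusted p of 0.0571 to 0.32. Among cluster 12 members Mmp10 (2.48), Lamb3 (-0.59), Lama3 (-0.37) and Plau (0.03) missed the threshold (log2 estimates, adjusted p 0.103 to 0.993). With members thinned to 2000 UMIs the calls of Mmp1b (0.46) and Itga3 (0.54) ended (log2 estimates, adjusted p 0.0947 to 0.344). By DESeq2 Timp1, Plau and Mmp1b did not pass (adjusted p 0.0553 to 0.0997). Unscaled, the fit did not call Plau, Mmp1b, Itga3 and Myo10 (adjusted p 0.0857 to 0.124).

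Stress genes moved unevenly. Of 18 NRF2 targets 4 rose and 1 fell, beside 9.14% and 10.7% of all genes, with Akr1b3, Gclc, the catalytic subunit of glutathione synthesis (1.53 ± 0.19, adjusted p = 8.95e-05), Nqo1 (1.25 ± 0.18, adjusted p = 0.000304) and Ftl1, ferritin light chain (1.75 ± 0.28, adjusted p = 0.000548), upward and Gsr downward (-0.70, adjusted p = 0.0219). The 70-kDa heat shock genes Hspa1a and Hspa1b, near copies, fell while Hsph1 (1.08) and Hspe1 (0.79) rose (adjusted p = 0.00145 and 0.0231), 2 each way of 12. Hspa1a had 171, 131 and 212 CPM in PBMC-sec libraries, against 583, 836 and 907 CPM in untreated libraries (-2.05 ± 0.25, adjusted p = 8.49e-05), and Hspa1b had 202, 156 and 252 CPM in PBMC-sec libraries, against 557, 739.6 and 791 CPM in untreated libraries (-1.65 ± 0.25, adjusted p = 0.000334). Of 17 unfolded protein response genes 0 rose and 1 fell, Xbp1 (-0.81, adjusted p = 0.00441). Of 18 hypoxia and glycolysis genes 3 rose and 0 fell: Adm, adrenomedullin (1.503 ± 0.23, adjusted p = 0.000456), Ankrd37 (1.42, adjusted p = 0.000105) and the glucose transporter Slc2a1 (0.67, adjusted p = 0.0418). Nqo1 was at -0.077 and Hspe1 at -0.0084 within cluster 12. Without the 8-week pair of libraries the call of Gsr and Slc2a1 was lost, at an adjusted p of 0.0715 to 0.235. With the 26-week pair left out, Hspe1, Xbp1 and Slc2a1 no longer passed (adjusted p = 0.0922 to 0.326). Leaving out the 52-week pair ended the call of Gsr and Hspe1 (adjusted p = 0.129 to 0.146). In cluster 12 alone Gclc (0.69), Ftl1 (1.66), Hsph1 (0.54), Xbp1 (-0.01) and Slc2a1 (0.62) did not pass (log2 estimates, adjusted p 0.0549 to 0.991). Thinned to 2000 UMIs per cell, Slc2a1 (0.30) did not pass (log2 estimates, adjusted p = 0.462). DESeq2 did not call Gsr (adjusted p = 0.0953). Without scaling factors Slc2a1 did not pass (adjusted p = 0.0609).

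Genes of vitamin A and lipid signals fell in 4 of 10 cases and rose in 0 (median -0.51), beside 10.7% and 9.14% of all genes. Aldh1a3, which makes retinoic acid, had 10.994, 5.33 and 4.68 CPM in PBMC-sec libraries, against 83.1, 33.5 and 104 CPM in untreated libraries (-3.24 ± 0.24, adjusted p = 6.57e-07), its groups apart. Few cells gave these values. At least 1 Aldh1a3 UMI was found in 0.77%, 1.40% and 2.32% of PBMC-sec members and in 6.10%, 2.92% and 5.26% of untreated members. The retinoic acid binding protein gene Crabp2 (-0.89) and the retinol dehydrogenase gene Dhrs9 (-1.92) fell too, with adjusted p of 0.00751 and 0.00262 in that order. Among 14 channels and transporters 3 rose, the sodium pump subunits Atp1b1 (1.40), Atp1b3 (0.66) and Fxyd2 (4.06), and 3 fell, Slc5a1 (-1.89), the epithelial sodium channel gene Scnn1a (-1.12) and Kcnk7 (-0.72), with adjusted p of 0.000313, 0.0357, 0.00143, 5.72e-06, 0.000605 and 0.0261 in that order. Slc5a1 had 20.6, 23.2 and 11.4 CPM in PBMC-sec libraries, against 72.0, 76.3 and 67.4 CPM in untreated libraries. Growth arrest genes gave 3 up (Mdm2 1.32, Trp53inp1 1.06 and Gdf15 1.31) and 1 down (Cdkn2b -0.69, log2) of 11, and YAP targets 0 up and 2 down (Amotl2 -0.63 and Nuak2 -1.29) of 8. All 12 ribosomal protein genes missed the threshold, with a median of 0.53. Nppb rose, with 517, 912 and 736 CPM in PBMC-sec libraries, against 168, 259 and 208 CPM in untreated libraries (1.88 ± 0.24, adjusted p = 9.59e-05). Trp53inp1 was at -0.76 and Amotl2 at 0.30 within cluster 12. With the 8-week pair left out, Atp1b3 and Gdf15 no longer passed (adjusted p = 0.102 to 0.168). Leaving out the 26-week pair ended the call of Crabp2, Atp1b3, Kcnk7, Mdm2, Trp53inp1, Gdf15, Cdkn2b and Amotl2 (adjusted p = 0.0532 to 0.325). Without the 52-week pair of libraries the call of Dhrs9, Kcnk7 and Gdf15 was lost, at an adjusted p of 0.0619 to 0.183. Restricted to cluster 12, the calls of Nppb (0.15), Crabp2 (-0.93), Atp1b3 (0.67), Scnn1a (-0.52), Kcnk7 (-0.39), Mdm2 (0.42), Cdkn2b (-0.01) and Nuak2 (-0.82) ended (log2 estimates, adjusted p 0.0798 to 0.99). With members thinned to 2000 UMIs the calls of Atp1b1 (0.84), Cdkn2b (-0.54) and Amotl2 (-0.45) ended (log2 estimates, adjusted p 0.153 to 0.21). By DESeq2 Fxyd2, Kcnk7, Gdf15 and Cdkn2b did not pass (adjusted p 0.064 to 0.164). Unscaled, the fit did not call Atp1b3, Kcnk7 and Gdf15 (adjusted p 0.053 to 0.144). Removing doublets ended the call of Gdf15 (adjusted p = 0.133).

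Whether the treatment difference itself differed between Epgn-positive cells and their Epgn-zero comparators was tested in 1 edgeR quasi-likelihood fit with library as a block. The comparators had median depths of 3629, 4057 and 5711 UMIs in PBMC-sec libraries and 6418, 6456.5 and 7094 UMIs in untreated libraries. The part of this unequal matching in the fit was not tested. Of 11198 genes 0 passed in either direction (0.0% called), the smallest adjusted p was 0.0604, and 1814 had an unadjusted p under 0.05. The nearest single comparator, or all Epgn-zero keratinocytes in place of the comparators, also gave 0 genes. Without the 52-week pair 138 were higher and 183 lower. Ereg is an example that did not pass: it changed by -0.65 ± 0.22 in members and by 0.76 ± 0.30 in comparators, a difference of -1.39 ± 0.46 (adjusted p = 0.202). For Cldn4 the values were 0.48 ± 0.28 in members and 1.56 ± 0.34 in comparators (difference -1.07 ± 0.25, adjusted p = 0.121). For Isg15 the difference was -0.68 ± 0.30 (adjusted p = 0.31) and for Akr1b3 -0.18 ± 0.24 (adjusted p = 0.756). On simulated data this fit recovered 27% of 2-fold and 93% of 4-fold differences, so a miss does not show that the cells responded alike.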

How the data were processed

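Droplet single-cell RNA libraries of dissociated back skin were made with the 10x Genomics kit, per the labels' protocols. The authors deposited counts: whole UMIs per gene and barcode, written by Cell Ranger 5.0.1, per the file headers. The genome was mm10 (GRCm38), per the submitters' processing notes; which annotation release was used is not given in these sources. Gene positions are from GENCODE M21.

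Barcodes with at least 500 UMIs, 300 genes and at most 10% mitochondrial UMIs were kept. The members, gene lists and markers were chosen with earlier results of these data known. UMIs were summed over the members of each library and tested with edgeR 4.0.16 (quasi-likelihood test, TMM scaling, low counts filtered, age and treatment as factors, 2 residual degrees of freedom, Benjamini-Hochberg adjustment). Members held 2775496 to 13039047 UMIs per library. The rule for named genes took Epgn, Cldn4, Klf5, the called genes with the largest median difference from comparators, up to 4 members of each list with the highest mean CPM, and the 10 genes with the largest fitted change each way among those that passed. Beyond that rule, the other list members named, mostly those that passed, the genes called without 1 library and Nppb were chosen after their values were seen. Folds against 0 counts allow 3 UMIs over the group. Intervals of shares are exact (Clopper-Pearson) and cover counting error only. The test between members and comparators was added after the files were seen. On simulated data, with 200 genes of 10209 changed, the test of members recovered 58% of 2-fold and 98% of 4-fold changes. Doublets were scored with Scrublet, whose own threshold marked 0 cells, so they were left in and the top-scoring cells removed as an alternative. Other alternatives were DESeq2 1.42.0, no scaling, thinning, other limits on Epgn, repeated barcodes removed and each library or pair left out. Python 3.11.15, scanpy 1.11.5 and R 4.3.3 were used. Other cell types of the skin were not analysed here. A few genes of the lists are counted but not reported here by name.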

Additional observations from a re-analysis of the deposited data

How the results depend on the processing

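The log2 ratio of the Epgn-positive share, PBMC-sec over untreated, was 2.13, 1.44 and 1.54 at 8, 26 and 52 weeks. With at least 1 Epgn UMI it was 1.46, 1.15 and 1.06, and with at least 3 it was 1.78 at 52 weeks. Thinned to 2000 UMIs it was 1.65 at 8 and 2.28 at 52 weeks, thinned to 1000 UMIs 1.90 at 26 and 3.14 at 52 weeks, and without repeated barcodes 1.04 at 8 weeks. Against comparators, 5 genes were called higher with a pseudocount of 1 CPM, 2 without doublets, 2 without repeated barcodes, and 1 to 24 with a library left out, while 4 were called lower with a pseudocount of 50 CPM. Between treatments, members gave 543 higher and 621 lower with DESeq2, 472 higher without scaling, 402 and 461 thinned to 2000 UMIs, 132 and 80 in cluster 12, and 335 to 1139 higher and 379 to 1184 lower with a pair left out. All keratinocytes gave 337 higher and 1824 lower without scaling, 294 and 244 without members, 324 and 334 thinned to 1000 UMIs, and 302 to 1619 higher and 383 to 1647 lower with a pair left out. The test between members and comparators gave 0 to 138 higher and 0 to 183 lower with a pair left out. The cause of these shifts was not tested, except that thinning, cluster 12 and left-out pairs use fewer cells or libraries. Of the named genes, 17 estimates turned their sign: Tgfa at -0.060 without the 8-week pair, -0.01 without the 52-week pair (0.13 without the 26-week pair), -0.13 without scaling and -0.068 thinned; Areg at -0.0072 thinned and -0.19 in cluster 12; and in cluster 12 Btc at -2.26, Erbb2 at 0.36, Tjp3 at 0.95, Dsg2 at -0.34, Dsg1a at 0.69, Itga3 at -0.22, Myo10 at -0.072, Nqo1 at -0.077, Hspe1 at -0.0084, Trp53inp1 at -0.76 and Amotl2 at 0.30. A further 193 of their estimates kept direction but missed the threshold, 7 newly passed and 1118 did neither. Of 112 named genes called, 49 kept the call without each of the 3 pairs in turn, 52 lost it without at least 1, and 11 lost none but were too low to be tested without some pair. No paired analysis was possible because each condition has 1 library and the labels tie no animals across groups; age is already a factor of the fit. Depth limits low genes: 2-fold changes were recovered less often than 4-fold ones on simulated data.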
